A study of Mus musculus with 10 samples.

Results

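RNA polymerase II and the general transcription factors that load it at promoters were read as a set of 36 genes, taken by name from the 35006 gene names in the count data. All 36 were present. They comprised the 12 subunits of the polymerase, TFIIA, TFIIB, TFIIE, TFIIF, the 7 core and 3 kinase subunits of TFIIH, and, of TFIID, TBP with 6 of its associated factors. TFIID recognises the core promoter, and TFIIA and TFIIB steady it and recruit the polymerase with TFIIF. TFIIE brings in TFIIH, whose translocase Ercc3 opens the DNA. The TFIIH kinase then phosphorylates the C-terminal repeats of the largest polymerase subunit, before CDK9 acts on the paused enzyme. In the intestinal epithelium these genes are in use in every cell type, since protein-coding genes of the nucleus depend on them.

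The libraries came from small intestinal crypt cells of C57BL6/J mice that carried EF1a-OSCAR, a ratiometric reporter of CDK9 activity built from VeN90 and mCherry. The reporter was placed under the EF1a promoter at Rosa26, and its stop cassette had been removed in the germline by Vasa-Cre, so all cells of all groups carried it. Live EpCAM+ cells were sorted into 5 populations, 10000 cells each, with 2 biological replicates per population. P1 was OSCARlow EF1alow, P2 was OSCARhigh EF1alow, P3 was OSCARlow EF1ahigh, P4 was OSCARmed EF1alow and P5 was OSCARmed EF1ahigh. The study reads a high OSCAR ratio as low polymerase II activity, and EF1a stands for the brightness of the transgene. The ages and sexes of the animals are not given in the sources used here. The total on genes ran from 3857612 counts in P3 replicate 1 to 6485823 in P4 replicate 2, and the 36 members took 2264 of them in the former and 10665 in the latter. The median member had 43.5 and 118 counts in P3, 68.5 and 76.5 in P2, and 113 to 216 in the other 6 libraries, so P3 replicate 1 and both P2 libraries were the least precise by counts. Levels are given as normalised CPM, read counts over the library size after scaling by TMM, the trimmed mean of M values.

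Cell type markers bear on the names of the libraries. Genes of secretory cells were highest in the libraries labelled P2, whereas the study's text places them in a different population. No library was renamed, and P1 to P5 below are the deposited labels. The gates are known from these labels alone, so what each comparison with P2 or P3 compares rests on labels that were not tested. The summed Paneth markers (7 of 8 listed genes were in the files, all above 3 counts in every library) stood at 19749.8 and 64094 (P1), 567859 and 408538 (P2), 3425 and 1839 (P3), 503 and 857 (P4), and 10790.3 and 2219.8 (P5), with Lyz1 as the most abundant gene. Its own level was 8983 and 28043 (P1), 264451 and 183077 (P2), 1376 and 697 (P3), 184 and 369 (P4), and 4836 and 872 (P5). Both P2 libraries exceeded every other library for this gene.

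The 8 goblet cell markers summed to 3077 and 3917 (P1), 50588 and 118861 (P2), 1912 and 3924 (P3), 10057 and 8010.4 (P4), and 8081 and 7052 (P5), and their most abundant gene was Fcgbp, at 20038 and 54051 in P2. The 8 enteroendocrine markers, led by Chgb, summed to 141 and 76.1 (P1), 2858 and 7428 (P2), 89.4 and 16.8 (P3), 490.4 and 333 (P4), and 167 and 302 (P5). The 7 tuft markers, led by Trpm5, summed to 116 and 55.9 (P1), 462 and 835 (P2), 184 and 14.4 (P3), 63.1 and 55.3 (P4), and 37.7 and 49.003 (P5). For each of these 3 lists both P2 libraries were the highest of the 10.

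The 10 enterocyte markers, led by Fabp2, were highest in P1, with sums of 57455 and 45077 (P1), 2227 and 6078 (P2), 25606 and 8385 (P3), 10579 and 4389.7 (P4), and 17979 and 7567 (P5). The 6 stem cell markers, led by Olfm4, were highest in P4 and P5, with sums of 658 and 933 (P1), 1621 and 1018 (P2), 527 and 2985 (P3), 4805 and 7079.7 (P4), and 4226 and 6964 (P5). The 8 cycling markers, led by Mki67, summed to 285 and 299.7 (P1), 295 and 217 (P2), 763 and 1223 (P3), 618 and 629 (P4), and 1184 and 1908 (P5). Mki67 itself stood at 89.04 and 117 (P1), 32.2 and 27.6 (P2), 284 and 552 (P3), 286 and 309 (P4), and 526 and 824 (P5) and was lowest in both P2 libraries. Over the 8 genes, however, the sums of P1 and P2 overlapped, as did those of P3 and P5. The P4 sums lay below those of P3 and P5, and all 6 of these libraries were above those of P1 and P2. All 5 epithelial markers were above 3 counts in every library, with Krt8 as the most abundant, and their sum ran from 3054 in P1 replicate 1 to 6191 in P3 replicate 1.

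Markers of intraepithelial lymphocytes, which the EpCAM gate should remove and of which none passed 3 counts in every library, summed to 999 and 289 (P1), 16.1 and 22.9 (P2), 164 and 3.32 (P3), 2.69 and 4.55 (P4), and 6.40 and 1.90 (P5), and Gzma was the most abundant of the 7, at 391 and 129 (P1), 0.912 and 0.222 (P2), 55.01 and 0 (P3), 0.245 and 0.989 (P4), and 0.343 and 0.106 (P5). P1 thus held the highest sums of enterocyte and lymphocyte markers at once. The 6 stromal and endothelial markers, led by Pecam1, summed to at most 4.65 in any library, and 1 of them had no count. The share of gene counts on mitochondrially encoded genes, in percent, was 1.78 and 1.17 (P1), 1.04 and 1.04 (P2), 59.2 and 36.1 (P3), 3.88 and 3.47 (P4), and 5.19 and 3.96 (P5), so the P3 libraries stood apart from the other 8 and from each other. In sorted bulk RNA, fewer cells of a type and less RNA per cell cannot be told apart. The part of cell composition, lymphocyte RNA and mitochondrial share in the differences below was not tested.

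**Figure D1:**
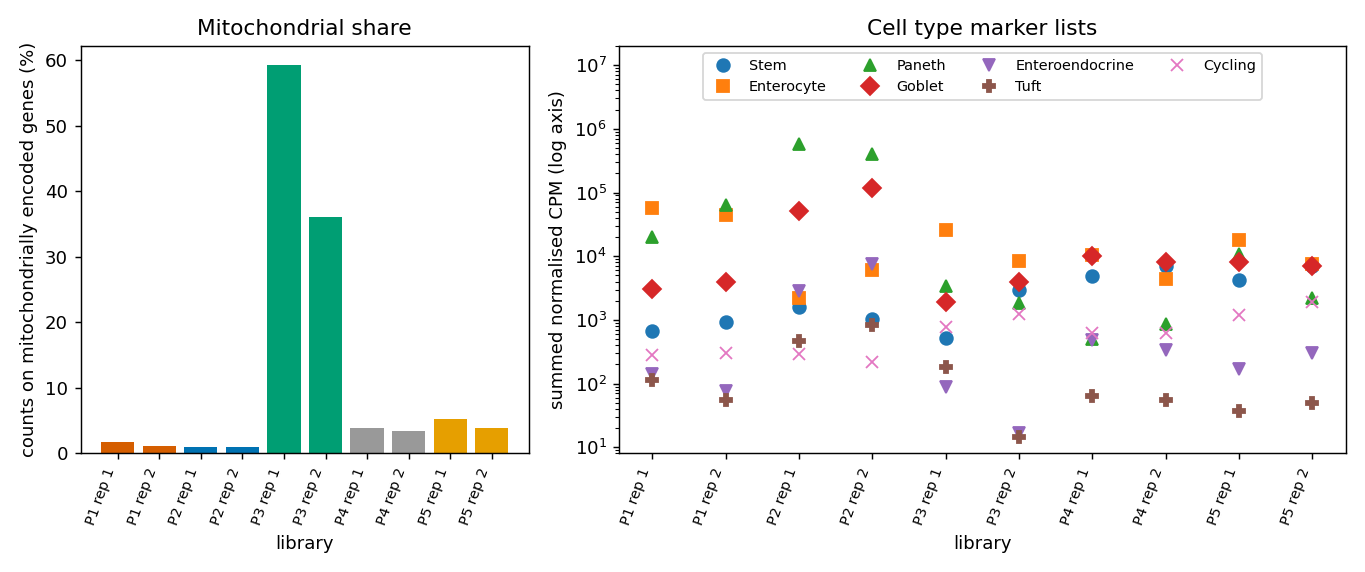
The left panel gives the percentage of gene counts on mitochondrially encoded genes in each library, as bars from 0, and the right panel gives the summed normalised CPM of 7 marker lists on a log axis. The P3 bars reach 59.2% and 36.1%, and the Paneth, goblet, enteroendocrine and tuft symbols are highest in both P2 libraries.

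All 36 members passed the filter on low counts, but some were barely countable. Per kilobase of exon shared with no other gene, the mean level over the 10 libraries was highest for Gtf2b (58.2 CPM per kb), Polr2f (57.8) and Gtf2f1 (43.5), with Polr2a at 24.2. Among the members with no shared or repeated exon bases it was lowest for Gtf2e1 (2.15) and Gtf2a1 (2.63). For Polr2b, 81.6% of the annotated exon bases (3808 of 4667) are shared with other genes, nearly all with AC141469.5 on the same strand, and a read inside the shared bases is ambiguous and left uncounted. AC141469.5 had 0 counts in every library. For Polr2k, 56.5% of exon bases matched another place in the genome over at least 75 bases at 98% identity or more, and for Polr2l 33.4% and for Polr2c 20.6% did, so their counts are uncertain. Ercc2 shared 42.7% of its exon bases with neighbours such as Klc3, and Tbp shared 19.3% with Pdcd2. The libraries do not mark strand, so reads of such overlaps cannot be assigned.

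The first question was which members differed anywhere among the 5 populations. Of the 36 members, 5 were called at an adjusted p under 0.01 in the quasi-likelihood F test of edgeR over all 5 means, namely Gtf2b, Gtf2f1, Gtf2h4, Polr2h and Gtf2h2. That is 13.9% of the members, while 36.3% of the 13708 genes tested were called; no test compared the 2 shares. The adjusted p was 0.000395 for Gtf2b, 0.000911 for Gtf2f1, 0.00284 for Gtf2h4, 0.00349 for Polr2h and 0.00591 for Gtf2h2. By complex, the calls fell on 1 of 12 polymerase subunits, TFIIB, 1 of 2 TFIIF genes and 2 of 7 TFIIH core genes, and on none of the TFIIA, TFIIE, TFIIH kinase or TFIID genes. Both the count and the share of all genes moved with single libraries: they were 12 (44.1% of all genes) without P3 replicate 2, 3 (21.1% of all genes) without P2 replicate 1, 3 (23.9% of all genes) without P4 replicate 1, 2 (18.4% of all genes) without P1 replicate 1, 2 (22.5% of all genes) without P2 replicate 2 and 2 (23.2% of all genes) without P4 replicate 2. Gtf2b was called in all 17 alternative settings (other scalings, no filter, DESeq2, a replicate block, rRNA genes kept, mitochondrially encoded genes removed, and each library left out), Gtf2f1 in 16, Gtf2h4 in 14, Polr2h in 13 and Gtf2h2 in 9, and the highest adjusted p among them was 0.0199, for Gtf2h2 in edgeR. DESeq2 called 10, the same 5 with Polr2c, Gtf2h1, Ercc2, Taf1 and Taf4a, beside 7172 of 21998 genes (32.6%). In edgeR the count was 9 (36.1% of 21998 genes) with no filter on low counts and 8 (36.8% of all genes) with total-count scaling. With both P3 libraries left out it was 9 (48.1% of all genes), with both P2 libraries left out 2 (15.1% of all genes), choices made after seeing the data.

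**Figure D2:**
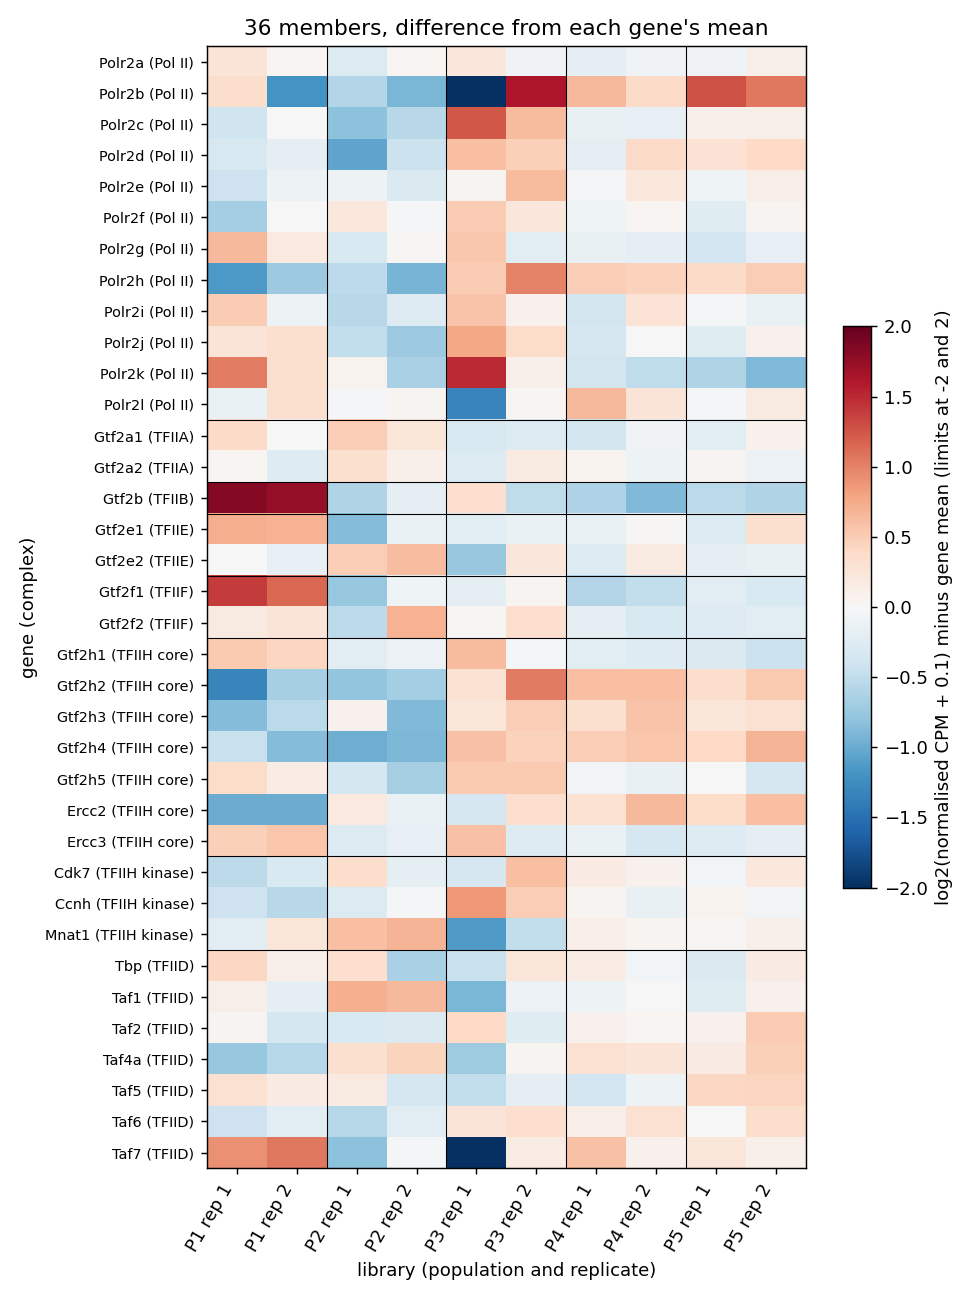
Members, grouped by complex, run down the plot and libraries across it. Colour is log2(normalised CPM + 0.1) minus the gene's mean over the 10 libraries, red above and blue below the mean, with limits at -2 and 2. Gtf2b and Gtf2f1 are most red in both P1 libraries, and Polr2h, Gtf2h2 and Gtf2h4 are blue in P1 and P2.

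Polr2a, the largest polymerase subunit, which carries the C-terminal repeats, stood at 203 and 174 (P1), 141 and 175 (P2), 199 and 161 (P3), 148 and 162 (P4), and 162 and 183 (P5). Each population overlapped with at least 1 other. Its log2 fold change was 0.18 (SE 0.17, adjusted p = 0.395) in P1 and -0.14 (SE 0.17, adjusted p = 0.562) in P2, each against the average of the other 4 populations, from edgeR. Polr2b, which forms the active centre together with Polr2a, had raw counts of 4 and 1 (P1), 1 and 1 (P2), 0 and 8 (P3), 7 and 7 (P4), and 12 and 11 (P5). With most of its exon bases shared, nothing is read from them gene by gene, and Polr2b enters only the counts and medians over members. A count of 0 in P3 replicate 1 allows a share of up to 7.78e-05% of that library, counting error only.

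Polr2c, which pairs with Polr2j to nucleate assembly of the enzyme, stood at 9.46 and 12.5 (P1), 6.99 and 8.45 (P2), 29.6 and 19.5 (P3), 11.3 and 11.1 (P4), and 13.4 and 13.5 (P5). Polr2j stood at 31.8 and 33.4 (P1), 18.9 and 16.01 (P2), 45.5 and 34.3 (P3), 21.2 and 26.7 (P4), and 22.5 and 28.4 (P5). Both genes were highest in the P3 libraries and lowest in P2, but their adjusted p in the 5-population test was 0.0133 and 0.0227, short of the threshold. Polr2h, which polymerases I and III also use, was the subunit called over the 5 populations by edgeR with all 10 libraries, the filter and TMM. DESeq2 also called Polr2c there, as did edgeR without P3 replicate 2. Polr2h stood at 6.42 and 8.67 (P1), 10.03 and 7.56 (P2), 20.6 and 28.8 (P3), 20.3 and 19.8 (P4), and 18.9 and 20.3 (P5). All 4 libraries of P1 and P2 lay below all 6 of P3, P4 and P5. The other 7 subunits were not called in any comparison in the edgeR model of the 5 population means alone, with all 10 libraries, the filter and TMM, and with total-count scaling Polr2d was called in P2 against the average of the other 4 and against P4. Of the stalk pair, Polr2d ran from 7.30 CPM in P2 replicate 1 to 23.3 in P3 replicate 1 and Polr2g from 17.8 CPM in P5 replicate 1 to 36.5 in P1 replicate 1. Of the subunits shared with polymerases I and III, Polr2e ran from 42.6 CPM in P1 replicate 1 to 88.1 in P3 replicate 2, Polr2f from 19.3 CPM in P1 replicate 1 to 43.9 in P3 replicate 1, Polr2k from 0.739 CPM in P5 replicate 2 to 4.23 in P3 replicate 1 and Polr2l from 1.06 CPM in P3 replicate 1 to 4.41 in P4 replicate 1. Polr2i, of the jaw, ran from 7.91 CPM in P2 replicate 1 to 17.5 in P3 replicate 1.

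Gtf2b had the largest log2 fold change of any member in the comparisons of populations. It encodes TFIIB, the single chain that links TBP to the polymerase, and lies on chromosome 3 from 142428190 to 142446567 of NCBIM37. Its level was 203 and 193 (P1), 37.4 and 50.3 (P2), 71.9 and 39.8 (P3), 37.2 and 30.7 (P4), and 39.1 and 37.4 (P5), so both P1 libraries exceeded the highest of the other 8. As means this was 198 ± 6.89 (SD, n = 2) in P1 against 33.9 ± 4.64 (SD, n = 2) in P4. Gtf2f1, the large subunit of TFIIF, lies on chromosome 17 from 57142826 to 57150723. It stood at 175 and 147 (P1), 39.2 and 62.5 (P2), 58.2 and 68.6 (P3), 44.2 and 47.1 (P4), and 57.4 and 53.8 (P5), and again both P1 libraries were the highest, while of the remaining populations P2 overlapped with each of P3, P4 and P5, which did not overlap with one another. Its partner Gtf2f2, the small subunit, ran from 13.7 CPM in P2 replicate 1 to 32.03 in P2 replicate 2 and was not called in any comparison in the edgeR model of the 5 population means alone, with all 10 libraries, the filter and TMM.

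Within TFIIE, Gtf2e1, the subunit that contacts TFIIH, stood at 21.3 and 21.02 (P1), 6.99 and 11.8 (P2), 11.1 and 11.7 (P3), 11.8 and 13.1 (P4), and 10.6 and 16.1 (P5). P1 was highest and its log2 fold change against the other 4 was 0.87 (SE 0.26, adjusted p = 0.0168) in the edgeR model of the 5 population means alone, which missed the threshold. Gtf2e2, its partner, ran from 10.1 CPM in P3 replicate 1 to 26.2 in P2 replicate 2. Of TFIIA, Gtf2a1, the precursor of the alpha and beta chains, ran from 11.1 CPM in P4 replicate 1 to 20.4 in P2 replicate 1, and Gtf2a2, the gamma chain, from 26.4 CPM in P3 replicate 1 to 39.8 in P2 replicate 1. Neither they nor the TFIIE genes were called in any comparison in the edgeR model of the 5 population means alone, with all 10 libraries, the filter and TMM, and without P3 replicate 2 Gtf2e2 was called in P2 against the average of the other 4.

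**Figure D3:**
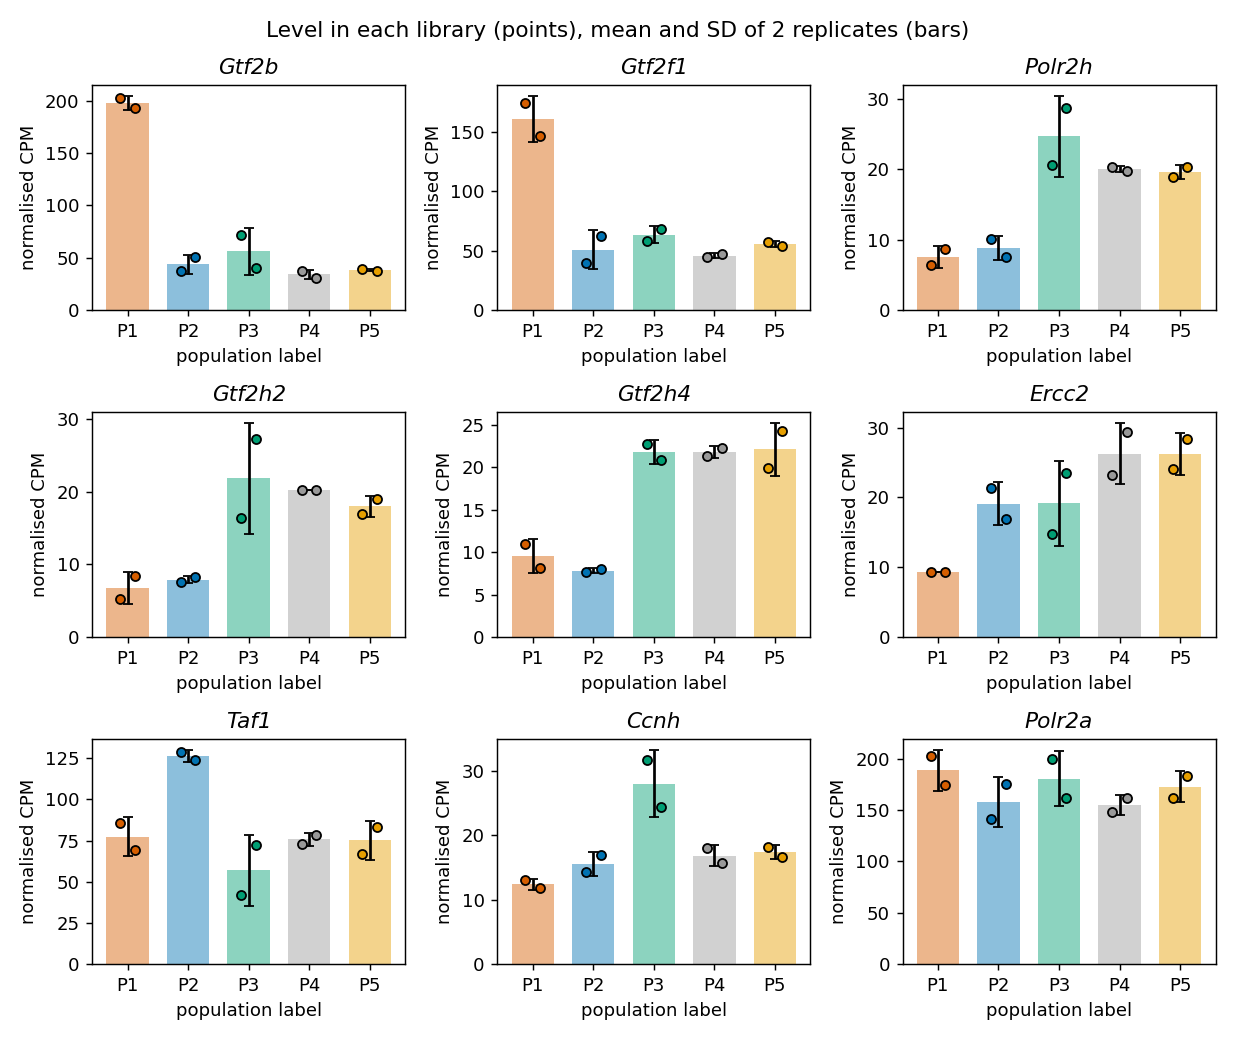
Normalised CPM of 9 members by population label. Points are libraries, bars the mean of 2 replicates from 0, and error bars the SD. Gtf2b and Gtf2f1 stand out in P1, Polr2h, Gtf2h2 and Gtf2h4 are low in P1 and P2, and the Polr2a points of P1 and P2 overlap.

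The promoters of the 6 members called between P1 and P4 are shown. By sign in that comparison alone, Gtf2b and Gtf2f1 were higher and the other 4 lower in P1. Each run is the RefSeq window of GRCm38.p6, 250 bases before to 50 after the start, 5′ to 3′ on the gene's strand. The windows are Gtf2b at chr3:142764997-142765296 (+), Gtf2f1 at chr17:57011239-57011538 (-), Polr2h at chr16:20717576-20717875 (+), Gtf2h2 at chr13:100492345-100492644 (-), Gtf2h4 at chr17:35673694-35673993 (-) and Ercc2 at chr7:19381767-19382066 (+). Capitals mark TATAAA, the letters of a TATA box, CCAAT, the GC box GGGCGG and CGGAAG, a core of ETS factor sites. Each was searched at any position and on both strands, so some capitals show the reverse complement of a motif. The 4 motifs were searched apart from one another, and no 2 matches overlap in these windows.
Gtf2b: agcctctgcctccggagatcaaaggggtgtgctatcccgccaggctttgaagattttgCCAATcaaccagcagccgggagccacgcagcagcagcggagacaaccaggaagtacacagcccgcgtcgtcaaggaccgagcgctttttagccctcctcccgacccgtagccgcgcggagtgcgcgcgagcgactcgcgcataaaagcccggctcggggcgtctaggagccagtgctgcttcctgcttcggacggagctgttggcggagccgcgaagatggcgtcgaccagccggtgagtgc
Gtf2f1: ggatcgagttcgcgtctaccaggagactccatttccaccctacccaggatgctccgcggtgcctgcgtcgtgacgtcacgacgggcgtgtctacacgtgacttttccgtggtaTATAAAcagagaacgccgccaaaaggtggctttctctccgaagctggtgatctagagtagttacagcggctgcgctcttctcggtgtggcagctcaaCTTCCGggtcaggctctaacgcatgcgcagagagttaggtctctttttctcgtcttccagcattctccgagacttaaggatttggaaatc
Polr2h: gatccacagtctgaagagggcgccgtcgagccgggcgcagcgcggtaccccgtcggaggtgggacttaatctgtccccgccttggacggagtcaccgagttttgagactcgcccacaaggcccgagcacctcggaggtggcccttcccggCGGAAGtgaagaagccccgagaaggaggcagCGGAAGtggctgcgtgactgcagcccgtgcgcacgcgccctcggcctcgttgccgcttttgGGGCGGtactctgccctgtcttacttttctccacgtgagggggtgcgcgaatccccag
Gtf2h2: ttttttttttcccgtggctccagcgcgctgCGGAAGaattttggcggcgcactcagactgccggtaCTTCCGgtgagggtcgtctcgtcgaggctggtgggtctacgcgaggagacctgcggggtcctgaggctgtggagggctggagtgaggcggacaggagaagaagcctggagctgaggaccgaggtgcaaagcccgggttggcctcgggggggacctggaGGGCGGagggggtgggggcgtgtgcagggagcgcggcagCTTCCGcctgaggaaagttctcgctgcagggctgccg
Gtf2h4: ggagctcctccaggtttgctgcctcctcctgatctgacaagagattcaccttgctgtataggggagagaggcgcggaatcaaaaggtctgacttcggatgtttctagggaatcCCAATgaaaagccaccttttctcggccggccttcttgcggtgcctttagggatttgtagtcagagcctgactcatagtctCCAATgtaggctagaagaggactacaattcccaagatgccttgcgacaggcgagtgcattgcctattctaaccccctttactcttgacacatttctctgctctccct
Ercc2: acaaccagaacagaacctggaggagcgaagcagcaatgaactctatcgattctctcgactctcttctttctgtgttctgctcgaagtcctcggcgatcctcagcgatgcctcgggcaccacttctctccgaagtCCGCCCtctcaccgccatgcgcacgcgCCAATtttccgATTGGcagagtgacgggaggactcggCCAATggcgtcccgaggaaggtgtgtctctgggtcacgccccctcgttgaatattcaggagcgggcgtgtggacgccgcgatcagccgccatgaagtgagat

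Of the 36 members, 27 had a window in that table. The search found TATAAA in 6 of 27 member windows (22.2%) and 13.6% of all 32851 windows, CCAAT in 8 of 27 member windows (29.6%) and 37.4% of all 32851 windows, GGGCGG in 18 of 27 member windows (66.7%) and 35.7% of all 32851 windows, and CGGAAG in 14 of 27 member windows (51.9%) and 16.9% of all 32851 windows. Of the 2 genes higher in P1, Gtf2f1 had TATAAA from -137 to -132 of its start, besides CGGAAG, and Gtf2b had CCAAT alone, from -192 to -188. Of the 4 lower genes, Polr2h and Gtf2h2 held CGGAAG and GGGCGG, Gtf2h4 and Ercc2 held CCAAT, Ercc2 also held GGGCGG, and none of the 4 held TATAAA. These are matches of letters and not tested sites.

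The 7 core subunits of TFIIH did not move as a block. Gtf2h2, which binds and stimulates the Ercc2 helicase, lies on chromosome 13 from 101230173 to 101262534 and stood at 5.24 and 8.34 (P1), 7.60 and 8.23 (P2), 16.4 and 27.2 (P3), 20.2 and 20.2 (P4), and 16.9 and 19.01 (P5). Gtf2h4, the partner of the Ercc3 translocase, lies on chromosome 17 from 35804675 to 35810684 and stood at 10.98 and 8.17 (P1), 7.60 and 8.01 (P2), 22.7 and 20.8 (P3), 21.3 and 22.3 (P4), and 19.9 and 24.3 (P5). In both genes all 4 libraries of P1 and P2 were below all 6 of the other populations. Ercc2, the helicase needed for nucleotide excision repair, lies on chromosome 7 from 19967359 to 19981043 and stood at 9.29 and 9.34 (P1), 21.3 and 16.9 (P2), 14.8 and 23.5 (P3), 23.1 and 29.4 (P4), and 24.1 and 28.3 (P5). P1 was lowest here and P2 overlapped with P3.

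Ercc3, the translocase that melts promoter DNA, stood at 56.3 and 59.7 (P1), 33.4 and 36.03 (P2), 60.8 and 33.9 (P3), 36.9 and 31.95 (P4), and 34.05 and 35.9 (P5), and both P1 libraries were above those of P2, P4 and P5. Its log2 fold change in P1 against the other 4 was 0.63 (SE 0.20, adjusted p = 0.0254) from edgeR, short of the threshold, though it was called without P3 replicate 1 and without both P3 libraries. Gtf2h1, a scaffold subunit that ran from 41.9 CPM in P5 replicate 2 to 88.3 in P3 replicate 1, had 0.59 (SE 0.18, adjusted p = 0.0187) in the same comparison, where DESeq2 called it, as did edgeR without P3 replicate 1 and without both P3 libraries, while Gtf2h3, which ran from 13.6 CPM in P2 replicate 2 to 37.3 in P4 replicate 2, had -0.89 (SE 0.25, adjusted p = 0.0206) and was called by edgeR with no filter, without P2 replicate 2 and without both P2 libraries. Gtf2h5, the smallest subunit, stood at 35.5 and 30.7 (P1), 21.6 and 17.3 (P2), 39.7 and 39.8 (P3), 26.4 and 25.03 (P4), and 27.5 and 21.9 (P5). It was lowest in P2 and highest in P3, and was not called in any comparison in the edgeR model of the 5 population means alone, with all 10 libraries, the filter and TMM, whereas with total-count scaling it was called in P2 against the average of the other 4 and against P4.

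Cdk7, the kinase of TFIIH, stood at 19.4 and 22.5 (P1), 35.6 and 24.5 (P2), 22.2 and 42.5 (P3), 31.2 and 29.8 (P4), and 26.96 and 32.5 (P5), and P3 spanned almost its whole range. Ccnh, the cyclin, stood at 13.01 and 11.8 (P1), 14.3 and 16.9 (P2), 31.7 and 24.3 (P3), 17.9995 and 15.7 (P4), and 18.2 and 16.7 (P5), with both P3 libraries above the other 8. Mnat1, the assembly factor, stood at 8.11 and 11.2 (P1), 14.3 and 15.1 (P2), 4.23 and 6.64 (P3), 10.3 and 9.79 (P4), and 9.60 and 10.1 (P5). It was lowest in both P3 libraries and highest in both P2 libraries, yet its adjusted p over the 5 populations was 0.0683. None of the 3 was called over the 5 populations, with adjusted p of 0.428 for Cdk7 and 0.0290 for Ccnh from edgeR.

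In TFIID, Tbp, the TATA-binding protein, stood at 25.2 and 20.5 (P1), 23.7 and 12.01 (P2), 13.8 and 22.4 (P3), 20.8 and 18.2 (P4), and 15.4 and 21.2 (P5). The P2 pair alone spanned nearly the whole range. Taf1, the largest subunit and a scaffold of the complex, stood at 85.7 and 69.2 (P1), 129 and 124 (P2), 41.8 and 72.4 (P3), 72.98 and 78.5 (P4), and 66.8 and 83.4 (P5), and both P2 libraries were above the other 8. Taf4a, a core subunit, stood at 18.9 and 21.5 (P1), 40.1 and 43.8 (P2), 19.6 and 33.4 (P3), 39.9 and 38.6 (P4), and 36.2 and 44.99 (P5). Both P1 libraries and P3 replicate 1 were low. Over the 5 populations Taf1 (adjusted p = 0.0351) and Taf4a (adjusted p = 0.0267) missed the threshold in edgeR with all 10 libraries, the filter and TMM. DESeq2 called both, as did edgeR with no filter and edgeR without P3 replicate 2. Taf4a was also called there by edgeR without P3 replicate 1 and without both P3 libraries. In P1 against the average of the other 4 Taf4a was at -0.86 (SE 0.21, adjusted p = 0.0106) from edgeR, and was called there by DESeq2, and by edgeR with no filter, with mitochondrially encoded genes removed, and without either or both P3 libraries. The remaining subunits were not called in any comparison in the edgeR model of the 5 population means alone, with all 10 libraries, the filter and TMM. Taf7 was called in P1 against the average of the other 4 and in P3 against P1 with no filter on low counts and without P3 replicate 2, there also over the 5 populations, and with total-count scaling Taf2 and Taf6 were called in P2 against P4 and Taf2 over the 5 populations. Taf2 ran from 26.9 CPM in P1 replicate 2 to 48.5 in P5 replicate 2, Taf5 from 7.93 CPM in P3 replicate 1 to 15.1 in P5 replicate 2, Taf6 from 27.97 CPM in P2 replicate 1 to 53.1 in P5 replicate 2 and Taf7 from 1.59 CPM in P3 replicate 1 to 17.01 in P1 replicate 2.

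Count ratios of partner genes within a library do not depend on the scaling between libraries. They were chosen after the values had been seen and were not tested. Gtf2b per Polr2a was 1.002 and 1.11 (P1), 0.266 and 0.288 (P2), 0.361 and 0.247 (P3), 0.252 and 0.190 (P4), and 0.241 and 0.204 (P5). Ercc3 per Ercc2 was 6.05 and 6.39 (P1), 1.57 and 2.13 (P2), 4.11 and 1.44 (P3), 1.59 and 1.09 (P4), and 1.41 and 1.27 (P5), and Gtf2f1 per Gtf2f2 was 7.78 and 6.20 (P1), 2.87 and 1.95 (P2), 2.89 and 2.74 (P3), 2.52 and 2.94 (P4), and 3.49 and 3.16 (P5). In each of the 3 pairs both P1 libraries exceeded all other libraries. Mnat1 per Cdk7 was 0.417 and 0.496 (P1), 0.402 and 0.618 (P2), 0.190 and 0.156 (P3), 0.329 and 0.329 (P4), and 0.356 and 0.312 (P5), lowest in both P3 libraries, while Ccnh per Cdk7 ran from 0.402 in P2 replicate 1 to 1.43 in P3 replicate 1, and the populations overlapped.

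**Figure D4:**
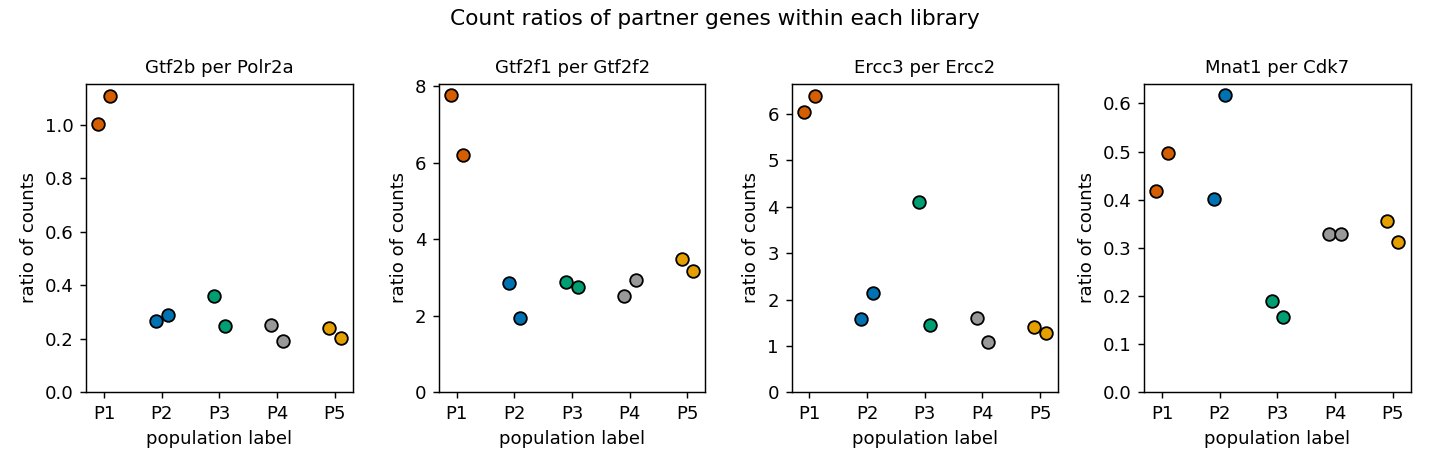
Ratio of the raw counts of 2 partner genes in each library (points), by population label, on linear axes from 0. The P1 points lie above all others for Gtf2b per Polr2a, Gtf2f1 per Gtf2f2 and Ercc3 per Ercc2, and the P3 points are lowest for Mnat1 per Cdk7.

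P1 was then set against the average of the other 4 populations, to find members that set the OSCAR-low, EF1a-low cells apart. Gtf2b and Gtf2f1 rose, and Ercc2, Gtf2h2 and Polr2h fell. Gtf2h2 and Polr2h were low in P2 as well, so their fall was not particular to P1. In P2 against P1, edgeR gave 0.22 (SE 0.35, adjusted p = 0.632) for Gtf2h2 and 0.21 (SE 0.31, adjusted p = 0.601) for Polr2h. The 5 calls among 36 members (2 higher, 3 lower) stood against 31.5% of all genes called, 19.4% higher and 12.1% lower. From edgeR, with Benjamini-Hochberg adjustment, the log2 fold change of Gtf2b was 2.23 (SE 0.22, adjusted p = 0.000146) and that of Gtf2f1 was 1.59 (SE 0.19, adjusted p = 0.000214). Both were called in each of 17 alternative settings, with log2 fold changes of 2.09 to 2.33 and 1.44 to 1.68. Ercc2 was at -1.27 (SE 0.24, adjusted p = 0.00308), Gtf2h2 at -1.22 (SE 0.27, adjusted p = 0.00703) and Polr2h at -1.18 (SE 0.24, adjusted p = 0.00441). These 3 kept their direction in all 17 settings, but lost the call without either P1 library, and Gtf2h2 and Polr2h also without either P4 or either P5 library and Gtf2h2 without either P2 library. Where a call was lost, adjusted p was 0.0249 to 0.0331 for Ercc2, 0.0121 to 0.0825 for Gtf2h2 and 0.0103 to 0.0573 for Polr2h, and total-count scaling also ended each of the 3. The median log2 fold change was -0.02 over members and -0.05 over all genes. The count was 8 (40.3% of all genes) with both P3 libraries left out and 7 (30.6% of all genes) with both P2 libraries left out. It was 9 (37.2% of all genes) without P3 replicate 1, 8 (33.1% of all genes) without P3 replicate 2, 2 (11.1% of all genes) without P1 replicate 1, 2 (14.1% of all genes) without P1 replicate 2, and 3 without any 1 library of P4 or P5 (22.4% to 24.8% of all genes). With no filter it was 8 (26.4% of all genes) and with total-count scaling 2 (18.3% of all genes). These P1 libraries were also those with the highest enterocyte and lymphocyte marker sums, whose part was not tested.

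**Figure D5:**
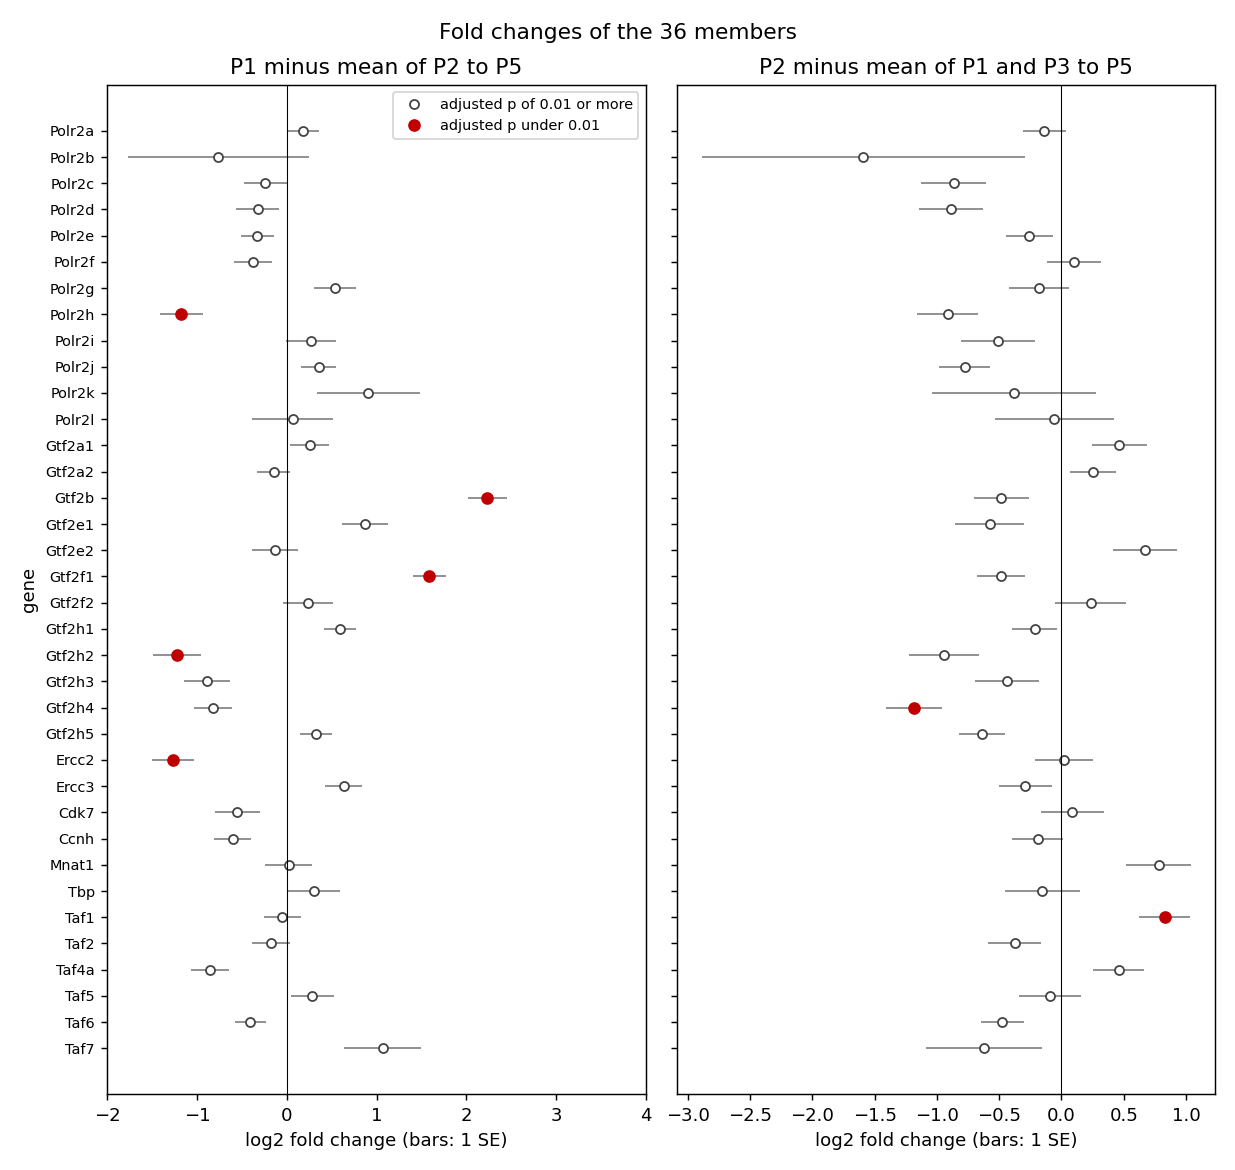
Log2 fold change of each member in P1 (left) and P2 (right), each against the average of the other 4 populations. Points are edgeR estimates with bars of 1 SE, filled red where adjusted p was under 0.01. Gtf2b at 2.23 is the farthest called point in P1, and in P2 the called points are Gtf2h4 at -1.18 and Taf1 at 0.83.

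P1 against P4 compared OSCAR low with OSCAR medium among dim cells. It gave 6 calls, Gtf2b and Gtf2f1 higher and Gtf2h2, Ercc2, Polr2h and Gtf2h4 lower, or 2 and 4 of 36 members, where 23.5% of all genes were called (14.0% higher, 9.44% lower). In edgeR the log2 fold changes were 2.54 (SE 0.27, adjusted p = 0.000899) for Gtf2b and 1.82 (SE 0.23, adjusted p = 0.00116) for Gtf2f1. They were -1.57 (SE 0.33, adjusted p = 0.00600) for Gtf2h2, -1.49 (SE 0.29, adjusted p = 0.00423) for Ercc2, -1.41 (SE 0.29, adjusted p = 0.00544) for Polr2h and -1.18 (SE 0.26, adjusted p = 0.00697) for Gtf2h4. Without P4 replicate 1 edgeR called 0 of all 14473 genes, and without P4 replicate 2 it called 0 of 14500, so the members' calls ended with those of all genes. There 10 and 8 members, and 38.8% and 36.6% of all genes, had an unadjusted p under 0.05, and DESeq2 was not run on them. Where a call was lost, adjusted p was 0.0112 to 0.0151 for Gtf2b and at most 0.0540 for the other 5, the highest being that of Gtf2h4. Total-count scaling ended the call of Gtf2f1. The 4 lower genes lost their calls without either P1 library, and Gtf2h2, Polr2h and Gtf2h4 without either P5 library. The count was 2 (5.83% of all genes) and 2 (8.15% of all genes) without P1 replicate 1 and 2, 3 (16.7% of all genes) and 3 (16.8% of all genes) without P5 replicate 1 and 2, 9 (30.3% of all genes) and 9 (30.4% of all genes) without P3 replicate 1 and 2, and 9 (32.7% of all genes) without both P3 libraries.

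P2 is labelled as the population with the highest OSCAR ratio. Against the average of the other 4 populations, 2 of 36 members were called, Taf1 higher and Gtf2h4 lower, where 27.0% of all genes were called (16.3% higher, 10.7% lower). In edgeR, Gtf2h4 was at -1.18 (SE 0.22, adjusted p = 0.00334) and Taf1 at 0.83 (SE 0.21, adjusted p = 0.00819). Gtf2h4 was low in P1 as well, and in P2 against P1 edgeR gave it -0.29 (SE 0.28, adjusted p = 0.415). Gtf2h4 lost its call without either P2 library or without P4 replicate 2 (adjusted p 0.0105 to 0.0333). Taf1 lost its call without P1, P2, P4 or P5 replicate 1 or 2 (each left out alone) and under total-count scaling, where its log2 fold change was 0.13 and adjusted p 0.786. Without 1 library the count was 0 (11.8% of all genes) for P2 replicate 1, 0 (13.0% of all genes) for P2 replicate 2 and 0 (19.7% of all genes) for P4 replicate 2, in edgeR, where 8, 8 and 11 members, and 36.8%, 39.3% and 44.9% of all genes, had an unadjusted p under 0.05 and DESeq2 was not run. It was 1 for P4 replicate 1 or any 1 library of P1 or P5 (20.0% to 22.6% of all genes), 4 (30.4% of all genes) for P3 replicate 1 and 5 (30.7% of all genes) for P3 replicate 2. Under total-count scaling it was 6 (25.8% of all genes), all 6 lower. Of the 36 members, 26 had a negative estimate, as did 6857 of all 13708 genes, and the members' median was -0.27. The polymerase subunits had a median of -0.45, with 11 of 12 below 0, and 0 were called by edgeR with all 10 libraries and TMM or by DESeq2, while 4 had an unadjusted p under 0.05 in edgeR, as did 6854 of all 13708 genes. Under total-count scaling their median was -1.08, beside -0.66 over all genes, and Polr2c, Polr2d and Polr2j were called. Polr2c and Polr2j were also called without P3 replicate 2, and Polr2h without P3 replicate 1. With both P3 libraries left out the same 2 genes were called, at -1.09 and 0.73. The P2 libraries also held the highest Paneth, goblet, enteroendocrine and tuft marker sums, whose part in these values was not tested.

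P2 against P1 set, by the labels, OSCAR high against OSCAR low in dim cells. Gtf2b and Gtf2f1 were lower in P2, 2 of 36 members where 29.1% of all genes were called, 15.2% of them lower and 13.9% higher as shares of all genes tested. The edgeR log2 fold changes were -2.17 (SE 0.28, adjusted p = 0.000577) and -1.66 (SE 0.24, adjusted p = 0.000854), and both calls stood in all 17 alternative settings. Taf4a came next, at 1.05 (SE 0.26, adjusted p = 0.0105), and was called by DESeq2, and by edgeR with no filter, with mitochondrially encoded genes removed, and without either or both P3 libraries. The count was 7 (34.8% of all genes) without P3 replicate 2, 6 (34.6% of all genes) without P3 replicate 1 and 6 (37.7% of all genes) without both. P2 against P4, by the labels OSCAR high against medium, gave 1 call of 36, Gtf2h4, at -1.48 (SE 0.27, adjusted p = 0.00437) in edgeR. Of all genes 14.3% were called, 8.02% higher and 6.30% lower. The call was lost without either P2 or either P4 library (adjusted p 0.0275 to 0.0371), where the share of all genes called was 4.29% and 4.09% for P2 and 2.74% and 2.21% for P4. The count was 3 (18.9% of all genes) and 3 (19.1% of all genes) without P3 replicate 1 and 2, 3 (20.8% of all genes) without both, 3 (15.9% of all genes) with no filter, and with total-count scaling 10 (22.8% of all genes), all 10 lower. The median over members was -0.21 against P1 and -0.12 against P4, beside 0.01 and 0.05 over all genes.

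P3 against P1 compared, by the labels, bright with dim cells at low OSCAR. Polr2h, Gtf2h2 and Ccnh were higher in P3, and Gtf2b and Gtf2f1 lower, 3 and 2 of 36 members, where 15.6% of all genes were called (8.02% higher, 7.59% lower). From edgeR the log2 fold changes were 1.72 (SE 0.30, adjusted p = 0.00370) for Polr2h, 1.70 (SE 0.34, adjusted p = 0.00630) for Gtf2h2 and 1.16 (SE 0.26, adjusted p = 0.00978) for Ccnh. They were -1.84 (SE 0.28, adjusted p = 0.00246) for Gtf2b and -1.34 (SE 0.24, adjusted p = 0.00409) for Gtf2f1. Without P1 replicate 1 edgeR called 0 of all 14425 genes, and without P1 replicate 2 it called 2.17% of all genes and 0 members. There 9 and 12 members, and 34.8% and 36.8% of all genes, had an unadjusted p under 0.05, and DESeq2 was not run on them. Where calls were lost, adjusted p was 0.0134 to 0.0152 for Gtf2b, 0.0134 to 0.0267 for Gtf2f1 (also without either P3 library), 0.0146 to 0.0580 for Polr2h and 0.0129 to 0.0759 for Gtf2h2 (both also without P3 replicate 2, Gtf2h2 also without any P4 or P5 library). The call of Ccnh was kept in 5 of 17 settings, lost among others under RLE size factors and without P3 replicate 1, and its adjusted p reached 0.188. The count was 3 (8.70% of all genes) without P3 replicate 2, 3 without any 1 library of P4 or P5 (8.41% to 9.88% of all genes), and 1 (8.53% of all genes) under total-count scaling. Both P3 libraries had a high mitochondrial share. With mitochondrially encoded genes removed the count was 6 (16.2% of all genes), and with both P2 libraries left out 5 (15.1% of all genes).

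P3 against the average of the other 4 gave 0 calls of 36 in edgeR, where 2.14% of all genes were called (1.63% higher, 0.503% lower). At an unadjusted p under 0.05 there were 12 members and 30.8% of all genes. DESeq2 called 1, Polr2c, with 5.47% of all genes, and so did edgeR with no filter on low counts, with 7.86%. The nearest were Polr2c at 1.19 (SE 0.24, adjusted p = 0.0157), Polr2h at 0.98 (SE 0.23, adjusted p = 0.0246) and Ccnh at 0.85 (SE 0.20, adjusted p = 0.0262). The polymerase subunits had a median of 0.56, with 11 of 12 above 0, and all 7 TFIIH core genes were above 0, against a median of 0.03 over all genes. The TFIIH core genes had a median of 0.46. Total-count scaling shifted all genes, to a median of -0.57, and put the median of the polymerase subunits at -0.00148 and that of the TFIIH core genes at -0.10, both above that of all genes. With both P2 libraries left out the count remained 0.

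By the labels, P3 against P5 set OSCAR low against medium in bright cells. P5 against P4 set bright against dim cells at medium OSCAR. In both, no gene passed the threshold in the edgeR model of the 5 population means alone, with all 10 libraries, the filter and TMM. P3 against P5 gave 0 calls of 36 and 0 of all genes (0%) in edgeR, 7 members and 11.6% of all genes had an unadjusted p under 0.05, and DESeq2 called 0 members and 41 genes. With no filter edgeR called 303 genes (1.38%), no member among them. Member log2 fold changes ran from -0.81 (SE 0.35, adjusted p = 0.423) for Mnat1 to 1.69 (SE 0.77, adjusted p = 0.445) for Polr2k. P5 against P4 also gave 0 of 36 and 0% of all genes in edgeR, 0 members and 2.56% of all genes had an unadjusted p under 0.05, and DESeq2 called 0 members and 28 genes. With no filter edgeR called 195 genes (0.886%), again no member. Here, Polr2b aside, member log2 fold changes ran from -0.39 (SE 0.54, adjusted p = 1) for Polr2l to 0.66 (SE 0.30, adjusted p = 1) for Taf5.

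By the labels, the step from dim to bright cells was compared between low and medium OSCAR. The contrast, P3 minus P1 less P5 minus P4, was added after seeing the data. It called 0 of 36 members in edgeR and 0.817% of all genes (0.328% higher, 0.489% lower), 9 members and 33.9% of all genes had an unadjusted p under 0.05. DESeq2 called 1930 of 21998 genes and 3 of 36 members, namely Gtf2b (difference -2.09, SE 0.43, adjusted p = 4.04e-05), Gtf2f1 (adjusted p = 0.000228) and Polr2h (adjusted p = 0.00929). The smallest adjusted p from edgeR belonged to Gtf2b, with a difference of -2.02 (SE 0.39, adjusted p = 0.0138), and Gtf2f1, with -1.62 (SE 0.33, adjusted p = 0.0161). Whether the step in these genes passed the threshold for a difference between the labelled OSCAR levels thus depended on the tool. All of these comparisons share libraries, P1 and P4 above all, and are not independent of one another.

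Other genes of the machinery were counted by list: other TAFs, Mediator, polymerases I and III, pausing and elongation, and C-terminal phosphatases with polymerase assembly. Over the 5 populations edgeR called 2 of 10, 1 of 29, 7 of 19, 5 of 19 and 5 of 11 tested genes of these lists, in that order, beside the 36.3% of all genes. In P2 against the average of the other 4, 1 of 10 (1 higher, 0 lower) other TAFs were called, with 1 of 29 (0 higher, 1 lower) Mediator genes, 3 of 19 (0 higher, 3 lower) of polymerases I and III, 4 of 19 (2 higher, 2 lower) of pausing and elongation, and 2 of 11 (1 higher, 1 lower) of the last list, where 27.0% of all genes were called. In P1 against the average of the other 4 the counts were 3 of 10 (3 higher, 0 lower), 2 of 29 (2 higher, 0 lower), 8 of 19 (2 higher, 6 lower), 4 of 19 (3 higher, 1 lower) and 8 of 11 (4 higher, 4 lower), where 31.5% of all genes were called. The genes named here were among the called of P2. Taf9b, a TFIID and SAGA subunit, stood at 1.69 and 1.17 (P1), 15.2 and 8.67 (P2), 0 and 0 (P3), 1.96 and 1.68 (P4), and 1.49 and 1.69 (P5), and was higher in P2 (adjusted p = 0.000220 in edgeR). With both P3 libraries at 0, its fitted fold change is not given. Med6, of the Mediator head, stood at 21.3 and 19.02 (P1), 5.47 and 9.12 (P2), 13.2 and 12.8 (P3), 14.9 and 13.6 (P4), and 14.7 and 16.6 (P5), and fell in P2, with a log2 fold change of -1.07 (SE 0.25, adjusted p = 0.00960).

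Among elongation genes, Ell2, a subunit of the super elongation complex, stood at 207 and 180.0 (P1), 172 and 156 (P2), 53.4 and 16.4 (P3), 23.02 and 22.6 (P4), and 33.6 and 25.3 (P5), high in P1 as well as P2. Its log2 fold change in P2 was 1.84 (SE 0.33, adjusted p = 0.00109), and that of Aff4, the scaffold of that complex, was 0.92 (SE 0.15, adjusted p = 0.000753). Aff4 stood at 255 and 248 (P1), 239 and 255 (P2), 103 and 92.7 (P3), 116 and 103 (P4), and 110.1 and 104 (P5), so that P1 and P2 were alike in range for this gene and both above P3, P4 and P5. Larp7, which binds the RNA that keeps CDK9 inactive, stood at 37.0002 and 32.7 (P1), 12.5 and 9.12 (P2), 28.6 and 48.3 (P3), 25.1 and 28.7 (P4), and 26.5 and 37.5 (P5), and fell in P2 with -1.61 (SE 0.26, adjusted p = 0.00167), and so did Th1l, a subunit of the pausing factor NELF, with -0.97 (SE 0.16, adjusted p = 0.00188). All 8 other libraries were above both of P2 for Larp7. Of polymerases I and III, the log2 fold change in P2 was, for Polr1b, -0.98 (SE 0.19, adjusted p = 0.00370), Polr3c -0.86 (SE 0.18, adjusted p = 0.00504) and Polr1d -0.80 (SE 0.18, adjusted p = 0.00868). Polr1b was low in P1 as well, at 12.2 and 8.67, beside 17.3 and 16.01 in P2, and was at least 43.8 in the other 6 libraries. Rpap2, a C-terminal phosphatase, had 1.17 (SE 0.30, adjusted p = 0.00938) and Ctdspl, a small phosphatase of the same repeats, had -1.13 (SE 0.17, adjusted p = 0.000962).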

How the data were processed

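Poly-A RNA of 10 libraries was sequenced without strand information. The authors used FastQC 0.11.5, TopHat2 2.1.0, Bowtie and HTSeq 0.11.2, and the deposited unit is the raw count of reads per gene name. The row named with a single dot and the 5 summary entries of HTSeq hold no gene and were left out. Of all reads the summary entries took 2.19 to 12.8 percent as outside genes, 0.425 to 1.39 percent as ambiguous and 11.6 to 41.7 percent as not unique, and the dot took at most 0.000596 percent of gene counts. The 204 rRNA names were removed. Low counts were filtered with filterByExpr, leaving 13708 genes, and counts were scaled by TMM in edgeR 4.0.16 under R 4.3.3. A single model of 5 population means was fitted to the 10 libraries, tested with edgeR's quasi-likelihood F test, and adjusted by Benjamini-Hochberg over all genes tested, with calls at an adjusted p under 0.01. Standard errors came from the fitted information and the moderated quasi-dispersion. The alternatives were DESeq2 1.42.0 with default settings, other size factors, total counts, no filter, a replicate block, rRNA genes kept, mitochondrially encoded genes removed, an adjusted p under 0.05 and leave-one-out fits for all 10 libraries. The procedure was tested on simulated data.

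Values in every library are given for 12 members chosen by role, in each comparison for at most 5 called members per direction, taken by the size of the log2 fold change, and for the 10 with the smallest p over the 5 populations, which together named 19 members. Other machinery genes were named if called and among the 3 largest of their list in a direction in P2 against the average of the other 4, and the most abundant gene of each marker list was named. The exceptions, Gtf2f2, Gtf2h1 and Gtf2h3 among them, were chosen after their values were seen. The members and lists were chosen with earlier results of these data known. Exon overlaps were read from the NCBIM37 gene models, which need not be the annotation the authors used and which hold 33643 of the 35006 names, and repeats were found with blastn 2.17.0. Promoter windows are from RefSeq on GRCm38.p6, and no coordinate of one build was used with the other. The 3-count floor covers counting error only, since reads carry no molecular identifiers. With 2 libraries per population, small differences could not be detected.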

Additional observations from a re-analysis of the deposited data

How the results depend on the processing

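Gtf2b and Gtf2f1 were called in P1 against the average of the other 4 and in P2 against P1 in all 17 alternatives, in the same direction. No called log2 fold change of a named member changed sign. Percentages in brackets give the share of all genes called in the same setting. For DESeq2 and for no filter, here and above, they are shares of 21998 genes. The number of members called, 5 (36.3%) over the 5 populations, was 8 (36.8%) with total counts, 9 (36.1%) with no filter, 10 (32.6%) with DESeq2 and 16 (57.9%) at an adjusted p under 0.05. For P2 against the average of the other 4 it was 2 (27.0%), with 6 (25.8%) for total counts and 9 (41.6%) at 0.05. For P1 against the average of the other 4 it was 5 (31.5%), with 2 (18.3%) for total counts, 8 (26.4%) with no filter and 12 (47.7%) at 0.05. With both P3 libraries left out, chosen after seeing the data, it was 8 (40.3%). For P3 against the average of the other 4 edgeR gave 0 (2.14%), where 12 members and 30.8% of all genes had an unadjusted p under 0.05, with 1 (7.86%) without the filter, 1 (5.47%) with DESeq2 and 6 (12.8%) at 0.05.

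For P2 against P1 the count of 2 (29.1%) became 9 (47.2%) at 0.05 and 6 (37.7%) with both P3 libraries left out. For P2 against P4 the count of 1 (14.3%) became 10 (22.8%) with total counts, 3 (15.9%) with no filter, 3 (29.1%) at 0.05, 3 (20.8%) with both P3 libraries left out and 2 (17.4%) with the replicate block. For P1 against P4 the count of 6 (23.5%) became 10 (42.1%) at 0.05. For P3 against P1 the count of 5 (15.6%) became 1 (8.53%) with total counts and 9 (4656 of 13708 genes) at 0.05. Over the 5 populations it became 9 (48.1%) with both P3 libraries left out and 2 (15.1%) with both P2 libraries left out. The cause of these changes was not tested.

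With each library left out in turn the counts ranged from 2 to 12 (18.4% to 44.1%) over the 5 populations, from 0 to 5 (11.8% to 30.7%) for P2 and from 2 to 9 (11.1% to 37.2%) for P1 against the average of the other 4, from 2 to 7 (10.8% to 34.8%) for P2 against P1, from 0 to 3 (2.21% to 19.1%) for P2 against P4, from 0 to 9 (0% to 30.4%) for P1 against P4 and from 0 to 4 (0% to 14.6%) for P3 against P1. They stayed at 0 for P3 against the average of the other 4, P3 against P5 and P5 against P4, in edgeR. The lone library left in a population is assumed there to vary like the other groups. Total counts moved the median log2 fold change of all genes in P2 against the average of the other 4 to -0.66 and that of the members to -0.94, so those counts are to be read against that shift. Of all genes called, the share that was higher moved from 60.4% to 30.9% with total counts in that comparison, from 76.5% to 43.5% for P3 against the average of the other 4, from 47.8% to 27.1% for P2 against P1, from 56.0% to 9.41% for P2 against P4, from 59.8% to 23.7% for P1 against P4 and from 51.4% to 8.30% for P3 against P1.

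The labels do not say that replicate numbers mark shared animals. Residuals of the replicates had a correlation above 0.1 in 9 of 10 pairs of populations, from -0.06 to 0.55. With the replicate block the counts were 6 (41.7%) over the 5 populations, 2 (29.7%), 7 (35.1%) and 0 (3.38%) for P2, P1 and P3 against the average of the other 4, 3 (33.0%) for P2 against P1, 2 (17.4%) for P2 against P4, 7 (28.3%) for P1 against P4, 5 (19.0%) for P3 against P1, and 0 for P3 against P5 and P5 against P4, where 4 and 1 of all genes were called. The calls added were Ercc2 over the 5 populations, Gtf2e1 and Taf4a for P1 against the average of the other 4, Gtf2h2 for P2 against P4, and Taf4a for P2 against P1 and for P1 against P4.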
